A study of Homo sapiens with 6 samples.

Results

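Aminoacyl-tRNA synthetases are the enzymes that attach each amino acid to its transfer RNA, and 36 nuclear genes for them were followed here among the 58884 genes counted. The genes were chosen by name: 18 encode cytosolic enzymes or subunits, 2 (*GARS1* and *KARS1*) encode enzymes that serve both the cytosol and the mitochondrion, and 16 encode mitochondrial enzymes. The 36 genes are not presented as the complete family. The cells were HSC4, a human oral squamous cell carcinoma line, and the measurement was RNA sequencing read counts per gene. The treated group comprised 3 libraries from cells given 50 µM DAPT, an inhibitor of γ-secretase, for 24 h. The control group comprised 3 libraries labelled only as control. The methods describe a DMSO vehicle, whereas the design text speaks of normal growth medium, so the vehicle content of the controls is not certain. Both groups come from a single cell line, and the labels do not say whether the libraries within a group were separate cultures, so the p-values measure only the spread between these libraries.

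Cytosolic synthetases charge the transfer RNAs used by ribosomes in the cytoplasm, and several of them sit in a multi-tRNA synthetase complex with the scaffold proteins AIMP1, AIMP2 and EEF1E1. Mitochondrial synthetases are made from nuclear genes, imported, and charge the transfer RNAs encoded by the mitochondrial genome. Uncharged transfer RNA activates the kinase GCN2, which raises translation of the transcription factor ATF4, and many cytosolic synthetase genes are known ATF4 targets. γ-Secretase releases the intracellular domain of Notch receptors, which drives genes such as *HES1* and *HEY1*.

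Libraries held 12276313 to 16317672 counted reads, so a floor of 3 counts corresponded to 0.184 to 0.244 CPM, a gene's counts scaled to a common library total. *HES1* averaged 47.0 CPM in the controls and 27.5 CPM with DAPT, and *HEY1* averaged 34.6 and 8.75 CPM. Squamous keratinocyte markers were present, with summed levels of 4694 to 4939 CPM in the controls and 2623 to 2739 CPM with DAPT, and 6 of 7 were lower with DAPT. *KRT14* was low, at 3.17 CPM in the controls. Control replicate 1 stood apart from the other libraries. In it 56 genes were more than 4-fold above the highest of the other 5 libraries after 0.5 CPM was added, against 0 genes in each other library. The 4 fibroblast markers summed to 525 CPM in control replicate 1, to 55.1 and 56.5 CPM in the other controls, and to 48.8 to 53.3 CPM with DAPT. In control replicate 1, *COL1A1*, *COL1A2*, *COL3A1* and *PDGFRB* were at 274, 215, 30.6 and 6.35 CPM. In the other 5 libraries nearly all of the sum came from *COL1A1*, at 48.3 to 54.0 CPM. There *COL1A2* reached at most 2.02 CPM, *COL3A1* 0.307 CPM and *PDGFRB* 0.433 CPM. Leukocyte markers summed to 10.4 to 12.8 CPM in the controls and 8.92 to 10.4 CPM with DAPT, nearly all of it from *CD14*, which was lower with DAPT, while *PTPRC* reached at most 0.146 CPM and *CD3E* was at 0 in every library. Endothelial markers summed to 1.01 to 1.37 CPM in the controls and 0.585 to 1.02 CPM with DAPT. The part that these signals play in the synthetase values was not tested. Values from fits without control replicate 1 are given where they change a call or a count.

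All 36 synthetase genes passed the filter on low counts, which kept 15001 genes. With DAPT, 10 synthetase genes were higher, 6 were lower and 20 did not pass an adjusted p of 0.05, by the quasi-likelihood test of edgeR and the Benjamini-Hochberg method. Among all tested genes 17.2% were higher, 18.0% were lower and 35.2% were called in either direction, and among the synthetases the shares were 27.8%, 16.7% and 44.4%. When the counts were scaled by library size alone, the split became 11 higher and 2 lower. Without control replicate 1 it became 12 higher and 6 lower.

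The counts were also taken by compartment, and the difference between compartments was not tested. Of the 20 cytosolic and dual genes, 10 were higher, 4 were lower and 6 were not called, and their median log2 fold change was 0.18, or 0.24 without control replicate 1. Of the 16 mitochondrial genes, 0 were higher, 2 were lower and 14 were not called, with a median log2 fold change of -0.06, or -0.09 without control replicate 1. The count of higher mitochondrial genes was also 0 at an unadjusted p of 0.05 in edgeR and 0 in DESeq2 and limma, whereas without control replicate 1 it was 1 (*HARS2*). The median over all tested genes was 0.01. The 3 DAPT libraries lay entirely above or entirely below the 3 controls for 18 of the 36 synthetases, 10 above and 8 below, and the same held for 46.3% of all tested genes.

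**Figure D1:**
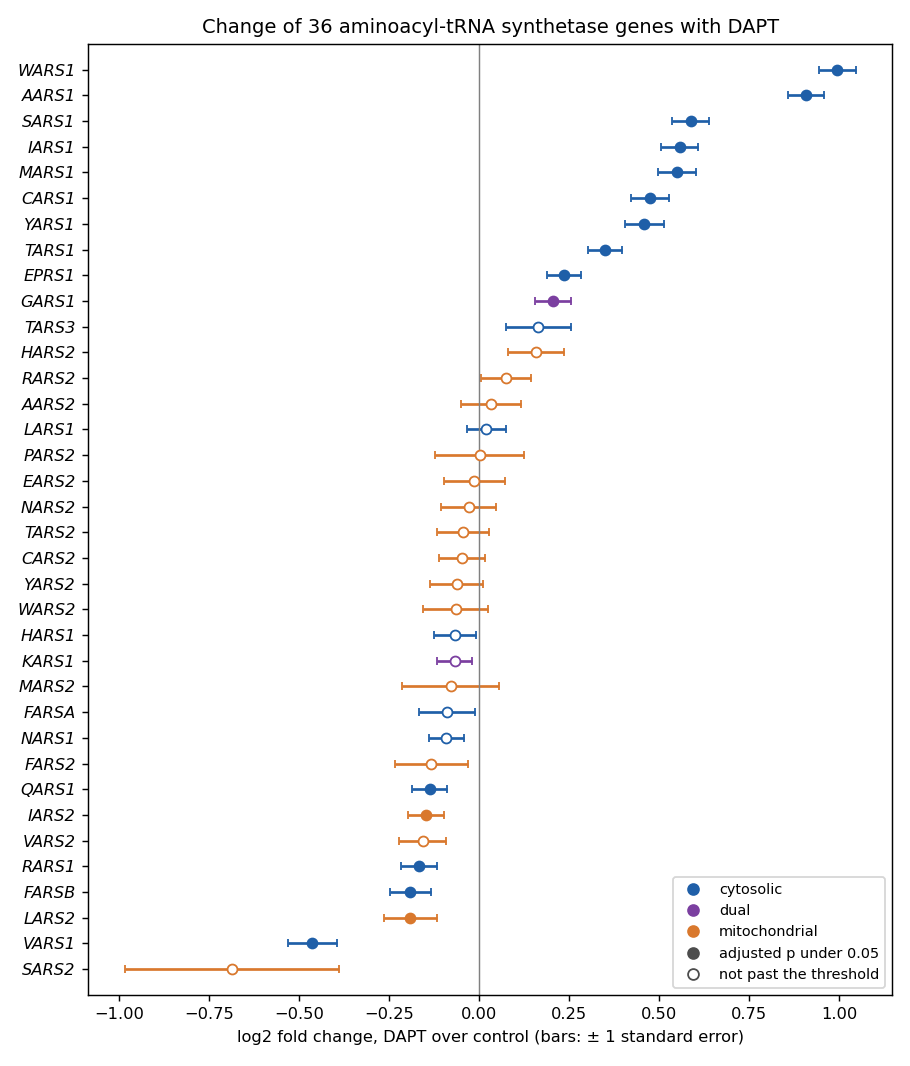
Log2 fold change (DAPT against control, edgeR) of the 36 synthetase genes with standard errors, in order of size and coloured by compartment; filled points passed the adjusted p of 0.05. The 10 genes that were higher are all cytosolic or dual, led by WARS1 at 0.99 and AARS1 at 0.91.

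The summed level of the cytosolic and dual synthetases was 3079, 3138 and 3001 CPM in the controls and 3891, 3896 and 3855 CPM with DAPT. The summed level of the mitochondrial synthetases was 691, 689 and 679 CPM in the controls and 641, 660.4 and 652 CPM with DAPT. Each DAPT library was above every control for the first sum, also with scaling by library size alone. Each was below every control for the second, but with library size alone that sum was 680.2, 674 and 668 CPM in the controls and 646, 674 and 663 CPM with DAPT, and the groups overlapped. They also overlapped when *IARS2* was left out of the sum, at 451 to 463 CPM in the controls and 437 to 454 CPM with DAPT.

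*WARS1* (chromosome 14, 100333790 to 100376805, GRCh38), which encodes the cytosolic tryptophan enzyme, changed most among the called synthetases. Its level was 162, 177 and 160 CPM in the controls and 341, 328 and 326 CPM with DAPT, with no overlap. The log2 fold change was 0.99 ± 0.05 (SE, n = 3 per group; edgeR adjusted p = 1.98e-12). *AARS1* (chromosome 16, 70252295 to 70289543), which encodes the cytosolic alanine enzyme, followed at 221, 228 and 210.3 CPM in the controls and 400.1, 427 and 409.9 CPM with DAPT. The DAPT libraries again lay well above the controls, with a log2 fold change of 0.91 ± 0.05 (SE, n = 3 per group; edgeR adjusted p = 4.43e-12).

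A middle group rose by log2 values of 0.46 to 0.59. *SARS1* (chromosome 1, 109213918 to 109238182), the cytosolic serine enzyme, measured 231, 251 and 233 CPM in the controls and 353, 374 and 345 CPM with DAPT. *IARS1* (chromosome 9, 92210207 to 92293756), the cytosolic isoleucine enzyme, measured 209, 187 and 195 CPM in the controls and 282, 293 and 296 CPM with DAPT. *MARS1* (chromosome 12, 57475445 to 57517569), the cytosolic methionine enzyme, measured 124, 138 and 128 CPM in the controls and 186, 196 and 188 CPM with DAPT. The groups did not overlap for any of these genes. Their log2 fold changes were 0.59, 0.56 and 0.55, each with an SE of 0.05, and the edgeR adjusted p-values were 9.62e-09, 2.32e-08 and 4.23e-08. The exons of *MARS1* overlap genes on the opposite strand (*ARHGAP9* and *DDIT3*) over 12.4% of their length, and counting used strand.

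*CARS1* (chromosome 11, 3000922 to 3057613), the cytosolic cysteine enzyme, stood at 66.2, 67.2 and 66.4 CPM in the controls and 91.8, 94.0 and 91.6 CPM with DAPT. *YARS1* (chromosome 1, 32775237 to 32818153), the cytosolic tyrosine enzyme, stood at 71.1, 73.4 and 68.2 CPM in the controls and 100.4, 96.2 and 95.7 CPM with DAPT. Both rose in every treated library. Their log2 fold changes were 0.47 ± 0.05 and 0.46 ± 0.05 (SE), with edgeR adjusted p-values of 3.63e-07 and 9.27e-07.

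The smallest rises that passed the test belonged to the threonine, glutamate-proline and glycine enzymes. *TARS1* (chromosome 5, 33440696 to 33469539), the cytosolic threonine enzyme, measured 504, 518 and 477 CPM in the controls and 642, 636 and 632 CPM with DAPT. *EPRS1* (chromosome 1, 219968600 to 220046530), whose single protein charges both glutamate and proline transfer RNA, measured 252, 241 and 239 CPM in the controls and 292, 279 and 291 CPM with DAPT. *GARS1* (chromosome 7, 30594838 to 30634033), the glycine enzyme of both compartments, measured 169, 168 and 159 CPM in the controls and 198, 187 and 188 CPM with DAPT. The groups did not overlap for any of them. Their log2 fold changes were 0.35, 0.24 and 0.20, each with an SE of 0.05, and the edgeR adjusted p-values were 6.43e-06, 5.79e-04 and 0.00285. All 10 higher genes kept their direction and their call in each of the 16 alternative fits, 6 of which left out a library.

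**Figure D2:**
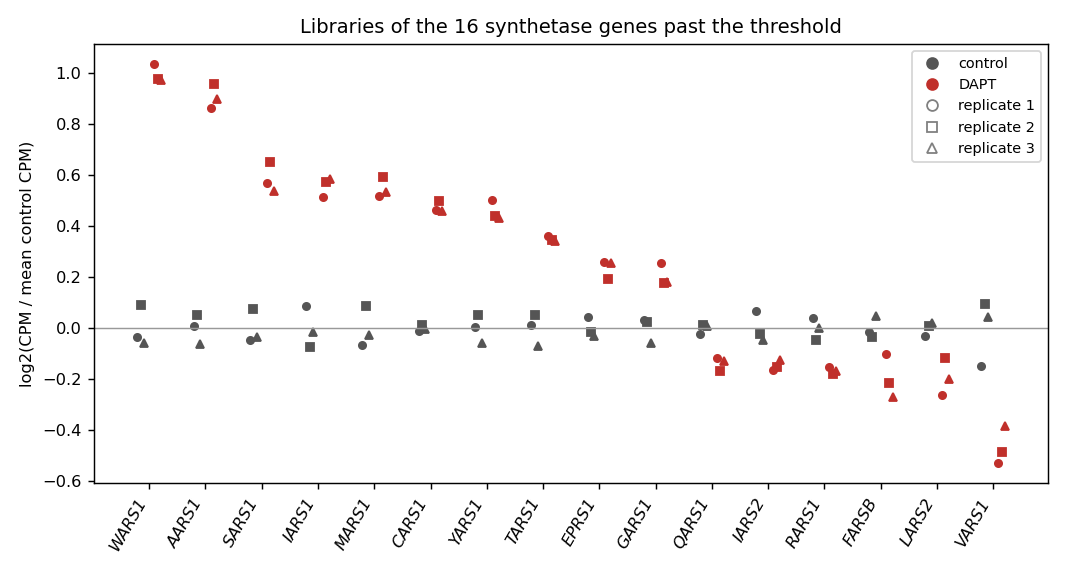
Level of the 16 called synthetase genes in each of the 3 control and 3 DAPT libraries, as log2 of CPM over the mean control CPM. For WARS1 the controls reach 177 CPM and the lowest DAPT library is at 326 CPM, whereas the VARS1 DAPT libraries lie between 48.5 and 53.6 CPM, below every control.

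The promoters of the synthetase genes were searched for the letters TGATGNAA, or TTNCATCA on the opposite strand, the core of the C/EBP-ATF response element that ATF4 binds with a partner. Windows of 300 bases, 250 before to 50 after each start, came from RefSeq (GRCh38.p14) and covered 30 of the 36 genes; *AARS2*, *LARS1*, *TARS3*, *VARS1*, *VARS2* and *YARS1* had none. The letters were present for 8 of 30 genes (26.7%), against 4.46% of all 27305 gene symbols and 3.62% of all 35116 windows in the same table. Of the 9 higher genes with a window 6 held them, and of the other 21 genes 2 did. A match is a description of the letters and not a binding site. The 8 matches are shown because most of them belong to genes that rose, each on the strand of its gene, 5′ to 3′, with the matching letters in capitals.
TARS1, chr5:33440931-33440994, plus strand: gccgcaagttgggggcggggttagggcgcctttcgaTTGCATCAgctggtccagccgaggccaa
GARS1, chr7:30594809-30594888, plus strand: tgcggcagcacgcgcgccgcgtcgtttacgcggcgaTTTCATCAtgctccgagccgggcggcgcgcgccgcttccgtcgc
IARS1, chr9:92293668-92293746, minus strand: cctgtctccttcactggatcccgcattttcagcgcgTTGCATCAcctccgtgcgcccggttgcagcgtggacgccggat
CARS1, chr11:3057394-3057461, minus strand: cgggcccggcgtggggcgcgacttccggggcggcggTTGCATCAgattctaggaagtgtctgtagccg
MARS1, chr12:57488028-57488097, plus strand: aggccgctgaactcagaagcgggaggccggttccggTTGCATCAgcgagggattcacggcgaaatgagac
AARS1, chr16:70289650-70289729, minus strand: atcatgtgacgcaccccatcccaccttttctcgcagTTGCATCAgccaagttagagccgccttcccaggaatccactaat
NARS1, chr18:57621807-57621858, minus strand: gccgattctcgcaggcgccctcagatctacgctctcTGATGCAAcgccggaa
YARS2, chr12:32756051-32756130, minus strand: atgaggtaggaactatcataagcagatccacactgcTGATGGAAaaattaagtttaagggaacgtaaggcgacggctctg

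Of these 8 windows, 6 carry the letters in the opposite-strand form and belong to the genes that rose, 5 of them with the identical TTGCATCA. *NARS1* and *YARS2* carry the letters as written and did not pass the test. The TGATGCAA of *NARS1* is the same sequence as TTGCATCA read on the other strand, so that sequence was not particular to genes that rose. *WARS1* and *SARS1*, whose changes were among the largest, had windows in which these letters are not present.

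*VARS1* (chromosome 6, 31777518 to 31795752), the cytosolic valine enzyme, had the largest fall among the called synthetases. Its level was 63.1, 74.7 and 72.1 CPM in the controls and 48.5, 50.0 and 53.6 CPM with DAPT, with no overlap. The log2 fold change was -0.46 ± 0.07 (SE, n = 3 per group; edgeR adjusted p = 1.72e-05), and -0.53 without control replicate 1. This call was kept in each of the 16 alternative fits.

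The other 3 cytosolic genes that fell changed little in size. *FARSB*, the beta subunit of the phenylalanine enzyme, measured 77.3, 76.3 and 80.7 CPM in the controls and 72.7, 67.3 and 64.8 CPM with DAPT. *RARS1*, the arginine enzyme, measured 128, 120.6 and 125 CPM in the controls and 112, 110.0 and 110.6 CPM with DAPT. *QARS1*, the glutamine enzyme, measured 137, 141 and 140.0 CPM in the controls and 128, 124 and 127 CPM with DAPT. The groups did not overlap for any of them, and the log2 fold changes were -0.19, -0.17 and -0.14, with edgeR adjusted p-values of 0.013, 0.0131 and 0.032. Their calls held in 13, 14 and 9 of the 16 alternative fits. With 1 library left out, the edgeR adjusted p of *FARSB* was 0.0626 without control replicate 3, 0.0645 without DAPT replicate 2 and 0.0946 without DAPT replicate 3. That of *RARS1* was 0.0504 without DAPT replicate 2. That of *QARS1* was 0.092 without control replicate 2, 0.0814 without control replicate 3, 0.121 without DAPT replicate 2 and 0.077 without DAPT replicate 3 by the same edgeR test. *FARSA*, the alpha subunit of the phenylalanine enzyme, averaged 75.1 ± 6.56 CPM in the controls and 70.4 ± 8.01 CPM with DAPT (SD, n = 3) and was not called.

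The remaining cytosolic and dual genes did not pass the test. *LARS1*, the leucine enzyme, measured 111, 108 and 100.5 CPM in the controls and 104, 108 and 111 CPM with DAPT, and its log2 fold change of 0.02 ± 0.05 (SE; edgeR adjusted p = 0.808) was among the 4 smallest of the synthetases. *NARS1*, the asparagine enzyme, measured 227, 229 and 219 CPM in the controls and 207, 217 and 210 CPM with DAPT. Its groups did not overlap, yet its log2 fold change of -0.09 had an edgeR adjusted p of 0.145. *KARS1* and *HARS1*, the lysine and histidine enzymes, both had a log2 fold change of -0.07. *TARS3*, a second cytosolic threonine enzyme, was at 0.16 with an edgeR adjusted p of 0.162, and at 0.28 with an adjusted p of 0.0176 without control replicate 1.

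The 7 measured members of the multi-tRNA synthetase complex did not move together. *IARS1*, *MARS1* and *EPRS1* rose, *QARS1* and *RARS1* fell, and *LARS1* and *KARS1* were not called, for a median log2 fold change of 0.02. Of the 13 cytosolic and dual genes outside the complex, 7 rose and 2 fell, with a median of 0.20. By structural class, 6 of the 10 class I cytosolic and dual genes rose and 3 fell, whereas 4 of the 10 class II genes rose and 1 fell. *EPRS1*, which charges both glutamate and proline transfer RNA, was counted in class I alone. The mitochondrial enzymes for these amino acids are class I for glutamate and class II for proline. The difference between these groupings was not tested, and among all tested genes 17.2% were higher and 18.0% were lower.

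Among the mitochondrial enzymes, *IARS2*, for isoleucine, and *LARS2*, for leucine, were the ones called. *IARS2* measured 239.9, 226 and 222 CPM in the controls and 204, 206 and 210.2 CPM with DAPT. Its groups did not overlap, and its log2 fold change was -0.15 ± 0.05 (SE) with an edgeR adjusted p of 0.0221, which became 0.0526 without control replicate 1, 0.0724 without DAPT replicate 2 and 0.0524 without DAPT replicate 3. *LARS2* measured 31.5, 32.4 and 32.7 CPM in the controls and 26.9, 29.7 and 28.0 CPM with DAPT, also without overlap. Its log2 fold change was -0.19 ± 0.07 (SE) with an edgeR adjusted p of 0.0487, close to the threshold, and the call held in 7 of the 16 alternative fits. Its edgeR adjusted p was 0.097 without control replicate 2, 0.105 without control replicate 3, 0.144 without DAPT replicate 1 and 0.106 without DAPT replicate 3.

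The other mitochondrial genes were not called, and for most of them the control and DAPT libraries overlapped. *WARS2*, for tryptophan, measured 24.4, 20.7 and 21.0 CPM in the controls and 19.6, 23.4 and 20.5 CPM with DAPT, a log2 fold change of -0.07 ± 0.09 (SE; edgeR adjusted p = 0.604). *AARS2*, for alanine, measured 24.7, 21.5 and 25.1 CPM in the controls and 24.9, 22.6 and 25.4 CPM with DAPT, a log2 fold change of 0.03 ± 0.08 (SE; edgeR adjusted p = 0.789). The groups overlapped for both, in contrast to their cytosolic counterparts *WARS1* and *AARS1*. *MARS2*, for methionine, measured 7.10, 7.08 and 7.87 CPM in the controls and 6.30, 6.58 and 7.99 CPM with DAPT, a log2 fold change of -0.08 ± 0.13 (SE; edgeR adjusted p = 0.681). *CARS2*, for cysteine, measured 57.5, 62.8 and 58.8 CPM in the controls and 61.7, 56.7 and 54.6 CPM with DAPT, a log2 fold change of -0.05 ± 0.06 (SE; edgeR adjusted p = 0.59). Both pairs of groups again overlapped. *YARS2*, for tyrosine, measured 37.3, 38.9 and 37.2 CPM in the controls and 34.7, 39.3 and 34.6 CPM with DAPT, a log2 fold change of -0.06 ± 0.07 (SE; edgeR adjusted p = 0.542). *TARS2*, for threonine, measured 43.3, 49.0 and 45.6 CPM in the controls and 46.2, 46.5 and 40.7 CPM with DAPT, a log2 fold change of -0.05 ± 0.07 (SE; edgeR adjusted p = 0.659). The groups overlapped for both of these genes too.

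The smallest mitochondrial changes were those of the proline, glutamate and asparagine enzymes. *PARS2*, for proline, measured 9.78, 13.5 and 10.4 CPM in the controls and 12.1, 10.3 and 11.1 CPM with DAPT, a log2 fold change of 0.0007 ± 0.12 (SE; edgeR adjusted p = 0.998). *EARS2*, for glutamate, measured 26.0, 32.1 and 30.1 CPM in the controls and 30.7, 27.3 and 29.2 CPM with DAPT, a log2 fold change of -0.01 ± 0.08 (SE; edgeR adjusted p = 0.919). *NARS2*, for asparagine, measured 44.6, 44.4 and 44.2 CPM in the controls and 38.4, 45.3 and 47.0 CPM with DAPT, a log2 fold change of -0.03 ± 0.08 (SE; edgeR adjusted p = 0.79). The groups overlapped for all of them. *RARS2*, for arginine, was at 0.07 ± 0.07 and *FARS2*, for phenylalanine, at -0.13 ± 0.10 on the log2 scale (SE), and neither was called.

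*VARS2*, the valine enzyme, had groups that did not overlap, at 53.7, 54.1 and 55.6 CPM in the controls and 45.7, 49.8 and 51.0 CPM with DAPT. Its log2 fold change was -0.16 ± 0.06 (SE), with an edgeR adjusted p of 0.0619, or 0.043 without control replicate 1. About 22% of its exon length is shared with *GTF2H4*, where reads could not be assigned to either gene.

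*HARS2*, the mitochondrial histidine enzyme, measured 32.9, 27.9 and 29.4 CPM in the controls and 32.9, 34.1 and 33.9 CPM with DAPT. Control replicate 1 was as high as the treated libraries, and the log2 fold change rose from 0.16 (edgeR adjusted p = 0.119) to 0.23 (edgeR adjusted p = 0.0155) without it. *HARS1* and *HARS2* begin 107 bases apart on opposite strands of chromosome 5. *SARS2*, the mitochondrial serine enzyme, had the lowest level of the 36, with 11 to 32 reads per library, and 46.2% of its exon length is shared with another gene on the same strand. *SARS2* measured 1.99, 1.37 and 2.07 CPM in the controls and 0.71, 1.39 and 1.31 CPM with DAPT, and the groups overlapped. Its log2 fold change of -0.69 ± 0.30 (SE) was not called (edgeR adjusted p = 0.0761), and without control replicate 2 it was -0.85 with an edgeR adjusted p of 0.0467.

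Dividing a cytosolic by a mitochondrial enzyme for the same amino acid within a library, here per kilobase of exon, removes the effect of depth and scaling. Of 18 such ratios, 9 were higher in every DAPT library than in every control, 2 were lower in every DAPT library and 7 overlapped. Among all tested single genes the groups did not overlap for 46.3%, and no such share was computed for ratios of genes. The ratios are not all distinct, since *EPRS1*, *FARS2* and *TARS2* each recur. An exact two-sided permutation test of 3 against 3 libraries cannot go below p = 0.1, so these ratios are given without a test. *WARS1* to *WARS2* was 4.03, 5.18 and 4.62 in the controls and 10.6, 8.47 and 9.63 with DAPT. *AARS1* to *AARS2* was 10.4, 12.4 and 9.77 in the controls and 18.7, 22.0 and 18.8 with DAPT. Both ratios were higher in all treated libraries, by 1.05 and 0.87 on the log2 scale.

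*IARS1* to *IARS2* was below 1 in every library, at 0.49, 0.46 and 0.49 in the controls and 0.77, 0.79 and 0.79 with DAPT. The methionine, cysteine and tyrosine ratios were higher by log2 values of 0.63, 0.52 and 0.52, the *TARS1* to *TARS2* ratio by 0.40, and the leucine ratio by 0.22. The serine ratio had the largest difference, 1.30, but it rests on the few reads of *SARS2*. The ratios that were lower were *VARS1* to *VARS2*, by -0.30, and *RARS1* to *RARS2*, by -0.24. The histidine ratio differed by -0.23 and its groups overlapped.

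**Figure D3:**
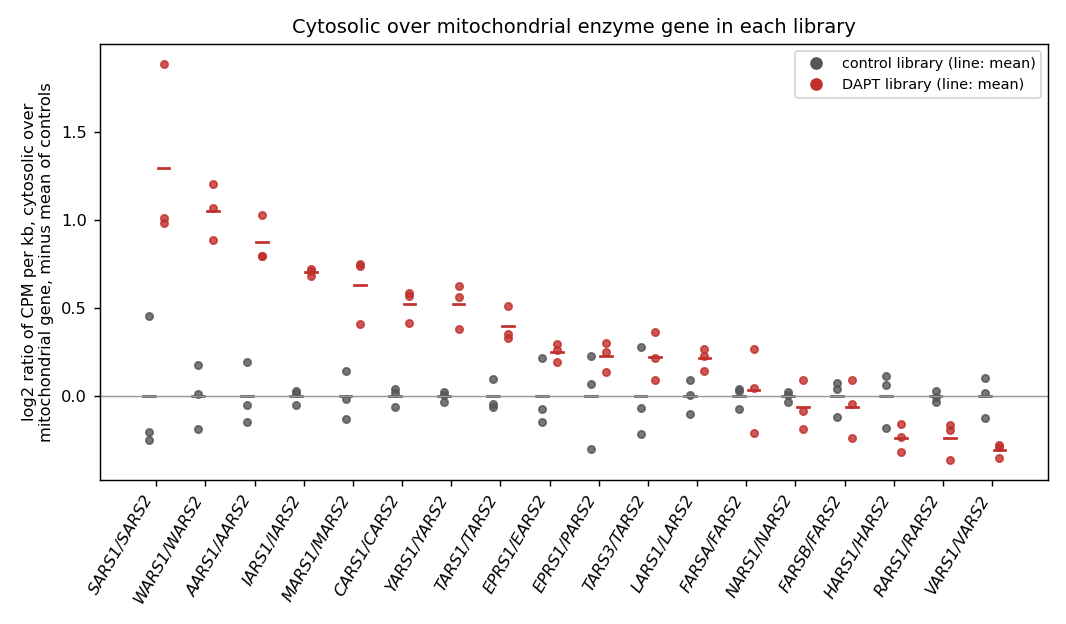
Log2 ratio of CPM per kilobase of each cytosolic to mitochondrial synthetase pair in each library (points), minus the mean of the controls, with group means as lines. The tryptophan and alanine ratios are higher in all DAPT libraries by 1.05 and 0.87, and the valine and arginine ratios are lower.

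Levels can be compared between genes only per length, here as CPM per kilobase of all annotated exons of the gene. On that scale the median control level was 28.1 for the cytosolic and dual genes and 5.72 for the mitochondrial genes. The highest levels in the controls were those of *TARS1* (87.4), *SARS1* (61.9), *IARS2* (55.4), *NARS1* (55.0) and *AARS1* (48.9). *IARS2* was the one mitochondrial gene among these 5. The lowest were *SARS2* (0.561), *MARS2* (2.43), *LARS2* (2.59) and *FARS2* (2.80). Long annotated exons that the cells do not use lower these values.

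**Figure D4:**
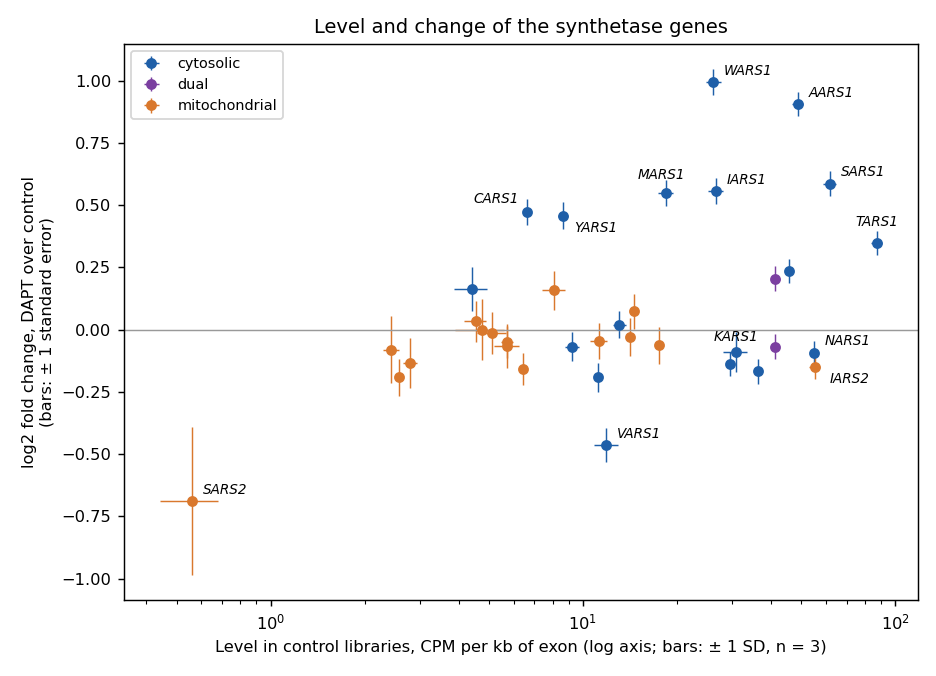
Control level in CPM per kilobase of exon (log axis) against log2 fold change for each synthetase gene, with the SD of the 3 controls and the standard error as bars. The mitochondrial genes have a median level of 5.72 and, apart from SARS2 at a log2 fold change of -0.69, lie between -0.19 and 0.16.

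Genes that work with the synthetases were read from lists of partners, whose counts stand against 17.2% higher and 18.0% lower among all tested genes. The scaffolds of the multi-tRNA synthetase complex did not rise: *AIMP2* was lower by -0.15 on the log2 scale (edgeR adjusted p = 0.0494) and *AIMP1* and *EEF1E1* were not called. The *AIMP2* groups overlapped, and its adjusted p was close to the threshold. Cytosolic elongation factors deliver charged transfer RNA to the ribosome, recycle the factor that does or drive translocation. Of the 5 such genes tested, 2 were lower. *EEF1B2*, a subunit of the exchange factor, fell from 227 ± 3.50 CPM to 171 ± 6.69 CPM (SD, n = 3), a log2 fold change of -0.41 (edgeR adjusted p = 1.23e-06), and *EEF1D*, another subunit, was at -0.15 (edgeR adjusted p = 0.0288). The groups overlapped for *EEF1D* but not for *EEF1B2*. Without control replicate 1 the count of lower genes was 3, with *EEF2*, the translocation factor, at -0.17 (edgeR adjusted p = 0.00461) against -0.12 (edgeR adjusted p = 0.061) with all libraries. *EEF1G* was listed at 0 in every library, and 99.7% of its exon length is shared with another gene on the same strand. Of the 8 mitochondrial partners 0 were called by edgeR, 0 had an unadjusted p under 0.05, and 0 were called by DESeq2 or limma, whereas 1 (*TUFM*, the mitochondrial elongation factor Tu) was called as lower without control replicate 1. Low counts limit *TSFM*, one of the 8, which had 57 reads over all libraries together. In *TSFM*, 63.9% of the exon length is shared with another gene on the same strand.

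In the list of transfer RNA maturation and export, 2 of 12 genes were higher, 2 were lower and 8 were not called, a share in each direction close to that of all tested genes (17.2% and 18.0%). Without control replicate 1 the counts were 3 higher and 4 lower, with *ELAC1* added to the higher and *TRNT1* and *LAGE3* to the lower genes. *XPOT*, which exports transfer RNA from the nucleus, measured 185, 169.9 and 169 CPM in the controls and 324, 326 and 310.2 CPM with DAPT. Its groups did not overlap, and its log2 fold change of 0.87 ± 0.05 (SE; edgeR adjusted p = 1.28e-11) was close in size to that of *AARS1*. *TSEN15* and *TSEN34*, subunits of the enzyme that splices transfer RNA, moved in opposite directions, at 0.35 and -0.26 (edgeR adjusted p = 1.64e-04 and 0.0155).

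For RNA polymerase III, which transcribes transfer RNA genes, and its factors, 5 of 21 genes were higher, 3 were lower and 13 were not called, near the shares of all tested genes (17.2% and 18.0%). The counts were the same without control replicate 1, but *POLR3E* and *POLR3K* lost the call and *POLR3GL* and *GTF3C2* gained it. The largest differences were -0.67 for *POLR3G*, 0.41 for *POLR3C* and 0.39 for *POLR3B* on the log2 scale (edgeR adjusted p = 0.00189, 1.50e-04 and 0.00199). For the editing and recycling of aminoacyl-tRNA, *PTRH2*, which releases peptides from transfer RNA, was lower by -0.26 (edgeR adjusted p = 0.0448) and *DTD1*, *DTD2* and *AARSD1* were not called. The *PTRH2* groups overlapped. Without control replicate 1, *DTD1* was called higher.

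In the list of the GCN2 and ATF4 branch, 5 of 8 genes were higher and 0 were lower (also 0 at an unadjusted p of 0.05 in edgeR and 0 in DESeq2 and limma), with a median log2 fold change of 0.78. *TRIB3*, a target of ATF4, rose from 31.3 ± 2.75 CPM to 109.6 ± 7.43 CPM (SD, n = 3), a log2 fold change of 1.81 (edgeR adjusted p = 9.30e-15). *DDIT3*, a stress-response transcription factor, rose from 17.2 to 41.0 CPM, a log2 fold change of 1.25 (edgeR adjusted p = 1.32e-09). *ASNS*, which makes asparagine, was higher by 1.97 (edgeR adjusted p = 1.70e-07), and 49.3% of its exon length is shared with another gene on the same strand. *ATF4* itself, named after its values were seen, rose from 147 ± 5.07 to 210.1 ± 11.1 CPM (edgeR adjusted p = 1.15e-07). The 3 genes not called were *EIF2AK4*, which encodes GCN2 and averaged 160.4 and 167 CPM, *GCN1* and *EIF2S1*. Their edgeR adjusted p-values were 0.42, 0.693 and 0.154. Whether GCN2 was active was not tested.

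**Figure D5:**
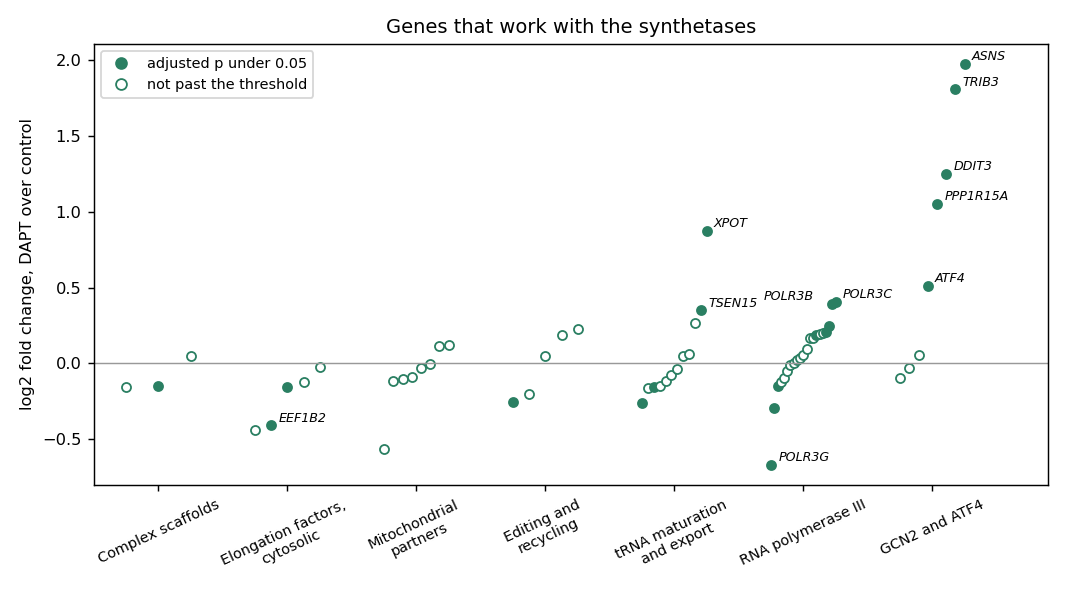
Log2 fold change (DAPT against control, edgeR) of the genes in each list of partners, 1 point per tested gene, filled where the adjusted p was under 0.05. XPOT at 0.87 and the filled points of the GCN2 and ATF4 branch, a list with a median of 0.78, lie highest. None of the points of the mitochondrial partners is filled.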

How the data were processed

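Total RNA from HSC4 cells was sequenced on the Illumina NextSeq platform from single-end directional libraries. The submitters' notes list FastQC, Trim Galore, HISAT2, HTSeq and DESeq2, and the deposited counts are raw whole-number reads per gene made with featureCounts 1.6.3 (per the file headers), counting exons by gene on 1 strand with Ensembl release 96 of GRCh38. Reads in exons shared by genes on the same strand were not counted.

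Symbols were found for 58472 of the 58884 gene identifiers. Genes low in counts were removed with edgeR's default filter, TMM scaling was applied and edgeR 4.0.16 (R 4.3.3) quasi-likelihood tests compared DAPT with control over all 15001 genes kept, with Benjamini-Hochberg adjustment and a threshold of 0.05. Fits were tested on simulated data. Alternatives were DESeq2 1.42.0, limma 3.58.1, other scalings and filters, a replicate block, a stricter threshold of 0.01 and leaving out each library. Levels are CPM after TMM scaling, except that the floor uses raw totals.

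All 36 synthetases are accounted for. Full statistics are given for the 10 called genes with the largest changes, for their partners in the other compartment and for the 4 smallest changes. From each list up to 3 called genes with the largest changes are named. The members and lists were chosen with earlier results of these data known. Same-numbered libraries did not deviate together (correlations of 0.0173, 0.0252 and 0.00382), so no pairing was used. Promoter sequences are from RefSeq.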

Additional observations from a re-analysis of the deposited data

How the results depend on the processing

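The number of higher synthetases was 10 to 12 under every alternative. The number of lower synthetases, 6, became 2 with scaling by library size alone and 1 at an adjusted p of 0.01, and 2 to 6 when 1 library was left out. For the cytosolic and dual genes the 4 lower became 2, 1 and 1 to 4 under the same alternatives. For the mitochondrial genes the count of 0 higher became 1 with library size alone and 0 to 1 with a library left out. Their 2 lower became 1 with DESeq2, with the likelihood ratio test, with no filter and without robust fitting, 0 with library size alone and at an adjusted p of 0.01, and 0 to 2 with a library left out. The median log2 fold change of the cytosolic and dual genes was 0.23 with library size alone and 0.15 to 0.24 with a library left out, and that of the mitochondrial genes was -0.0090 and -0.093 to -0.037. An alternative chosen after seeing the data, library size alone, changed the difference in summed level (DAPT minus control) from 807 to 920.0 CPM for the cytosolic and dual genes and from -35.1 to -13.1 CPM for the mitochondrial genes. Library size alone moved the median of all tested genes from 0.01 to 0.06. The causes were not tested.

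With a replicate block 10 synthetases were higher and 6 lower, 4 of them cytosolic, the medians were 0.19 and -0.06, and no synthetase changed its call. Of the 6 libraries, 4 correlated best with the library of the same number.

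Of 576 gene values under alternatives, 527 kept direction and side of the threshold, 25 lost and 5 gained the call, and 19 changed sign. The sign changes were in genes near 0. Library size alone gave 0.033 for *EARS2*, 0.017 for *NARS2* and 7.8e-04 for *TARS2*. *PARS2* was at -0.0052 with DESeq2, -0.0032 with RLE scaling, -0.0061 with upper quartile scaling and -3.5e-04 with at least 10 counts in every library. With a library left out the values ran from -0.037 to 0.083 for *AARS2*, -0.098 to 0.052 for *EARS2*, -0.022 to 0.051 for *LARS1*, -0.085 to 0.057 for *NARS2*, -0.099 to 0.15 for *PARS2*, -0.089 to 0.014 for *TARS2* and -0.14 to 0.021 for *WARS2*. Low counts limit *SARS2*, *MARS2* and *PARS2* most.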
